A study of Mus musculus with 10 samples.

Results

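Fc receptors and the ITAM adaptors that carry their signals were compared between kidneys of mice that lost Lkb1 (gene symbol Stk11) in the tubules and kidneys of control mice. The group was a list of 8 genes: the activating receptors for IgG Fcgr1, Fcgr3 and Fcgr4, the inhibitory receptor Fcgr2b, the adaptors Fcer1g and Tyrobp, the kinase Syk and the neonatal Fc receptor Fcgrt. Each of the 8 had 1 row of the array table under its symbol alone, out of 30142 genes in all. Whole kidneys of 5 controls and 5 knockouts were measured, each on its own Affymetrix array, at an age of 5 weeks. Controls were littermates with the floxed Lkb1 allele on 1 or both chromosomes and no Cre (Lkb1flox/+ or Lkb1flox/flox). Knockouts carried the floxed allele and KspCre, a transgene that expresses Cre from the Cdh16 promoter of kidney tubule cells. Only the knockouts carried Cre, so Lkb1 loss and the transgene cannot be told apart. The titles call the knockouts a knockdown, and the design text of the series names MDCK cells, a dog kidney line; the sample labels and protocols, which describe mouse kidneys, were followed here. C57Bl/6N is given as strain, although the floxed mice are described as of mixed background.

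Fc receptors bind the constant part of antibodies. The activating IgG receptors have no signalling motif of their own and depend on Fcer1g, a small chain with an ITAM, a tyrosine motif that Src family kinases phosphorylate and that then recruits Syk. Tyrobp is the sister adaptor of many other myeloid receptors, such as Trem2. Fcgr2b carries the opposing ITIM motif, through which the phosphatase Inpp5d is recruited. Fcgrt, the heavy chain of the neonatal receptor FcRn, pairs with B2m, uses no ITAM and returns IgG and albumin to the blood. In the kidney the activating receptors are chiefly those of resident and recruited macrophages, while Fcgrt is also made by podocytes, proximal tubule and endothelium.

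The start regions of the IgG receptors and of Fcer1g are shown first, marked for a short core that was chosen with earlier results known. The windows come from RefSeq (GRCm38.p6, the mm10 build), run 5′ to 3′ on the strand of the gene, and cover 250 bases before and 50 bases after the start. Capitals mark GAGGAA, the core bound by the myeloid factor PU.1, on either strand (TTCCTC on the other strand). The windows lie at chr3:96293920-96294219 (Fcgr1, minus strand), chr1:171059354-171059653 (Fcgr3, minus strand), chr1:171018676-171018975 (Fcgr4, plus strand), chr1:170976022-170976321 (Fcgr2b, minus strand) and chr1:171234300-171234599 (Fcer1g, minus strand).
Fcgr1: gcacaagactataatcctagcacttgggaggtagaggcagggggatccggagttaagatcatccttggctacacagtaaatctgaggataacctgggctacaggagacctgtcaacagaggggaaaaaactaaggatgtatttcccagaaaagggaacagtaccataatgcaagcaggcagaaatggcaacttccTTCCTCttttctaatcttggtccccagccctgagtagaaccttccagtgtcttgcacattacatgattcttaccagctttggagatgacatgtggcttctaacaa
Fcgr3: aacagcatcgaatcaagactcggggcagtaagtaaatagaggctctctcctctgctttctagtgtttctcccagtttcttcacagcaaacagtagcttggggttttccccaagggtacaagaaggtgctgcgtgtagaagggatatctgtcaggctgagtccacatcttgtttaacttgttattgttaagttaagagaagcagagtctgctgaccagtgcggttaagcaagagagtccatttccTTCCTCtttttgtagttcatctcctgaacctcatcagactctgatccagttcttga
Fcgr4: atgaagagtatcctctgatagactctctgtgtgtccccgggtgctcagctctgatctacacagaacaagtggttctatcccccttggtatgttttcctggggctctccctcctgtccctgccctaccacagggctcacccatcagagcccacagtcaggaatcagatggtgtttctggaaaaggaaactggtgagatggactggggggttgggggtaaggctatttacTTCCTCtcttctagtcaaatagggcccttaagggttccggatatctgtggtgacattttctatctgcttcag
Fcgr2b: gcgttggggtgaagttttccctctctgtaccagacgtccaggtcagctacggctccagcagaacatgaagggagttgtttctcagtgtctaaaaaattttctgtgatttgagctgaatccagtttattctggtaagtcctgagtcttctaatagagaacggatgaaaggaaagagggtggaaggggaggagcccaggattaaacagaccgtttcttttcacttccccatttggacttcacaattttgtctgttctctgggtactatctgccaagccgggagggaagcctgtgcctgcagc
Fcer1g: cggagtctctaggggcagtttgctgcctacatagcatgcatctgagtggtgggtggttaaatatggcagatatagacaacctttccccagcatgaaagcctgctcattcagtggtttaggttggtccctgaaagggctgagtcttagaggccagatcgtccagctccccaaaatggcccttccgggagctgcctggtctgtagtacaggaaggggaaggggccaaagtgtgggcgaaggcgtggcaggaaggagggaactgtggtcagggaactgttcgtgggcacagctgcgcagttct

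The core began at position -55 in Fcgr1, -6 in Fcgr3 and -22 in Fcgr4, where -1 is the base before the start, and it was the TTCCTC form in each. Of the 7 members with a window in the RefSeq table, 3 held the core in their first window, the activating receptors, and Syk held it in the second of its 2 windows. The core was not found in the windows of Fcgr2b, Fcer1g and Fcgrt, and Tyrobp has no entry. Among the first windows of all 27025 genes, 28.3% held the core. A match describes these letters only, and whether the core bears on the rises was not tested. Spi1, the gene of PU.1, had no row under its symbol alone.

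In the knockouts 6 of the 8 genes rose, 0 fell and 2 did not pass (limma, Benjamini-Hochberg adjusted over all genes, threshold 0.05). Over all genes, 8.03% passed in either direction, 5.35% as higher and 2.67% as lower. By limma, 6927 of all 30142 genes had an unadjusted p under 0.05, in either direction. The log2 differences (knockout minus control) ran from 0.11 for Fcgrt to 0.95 for Fcer1g, with a median of 0.42 against -0.03 over all genes. Groups did not overlap for 5 of the 8, all higher in the knockouts, while 8.57% of all genes were separated in either direction, 5.07% as higher and 3.5% as lower. Stk11, the targeted gene, was lower in the knockouts (9.18 ± 0.10 against 9.43 ± 0.03, SD, n = 5 each; log2 difference -0.25, SE 0.05, adjusted p = 0.00749). The kidney markers Umod, Slc12a1 and Lrp2 had group means of 12.23 to 13.16, above at least 99.7% of the negative control probe sets in the controls.

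**Figure D1:**
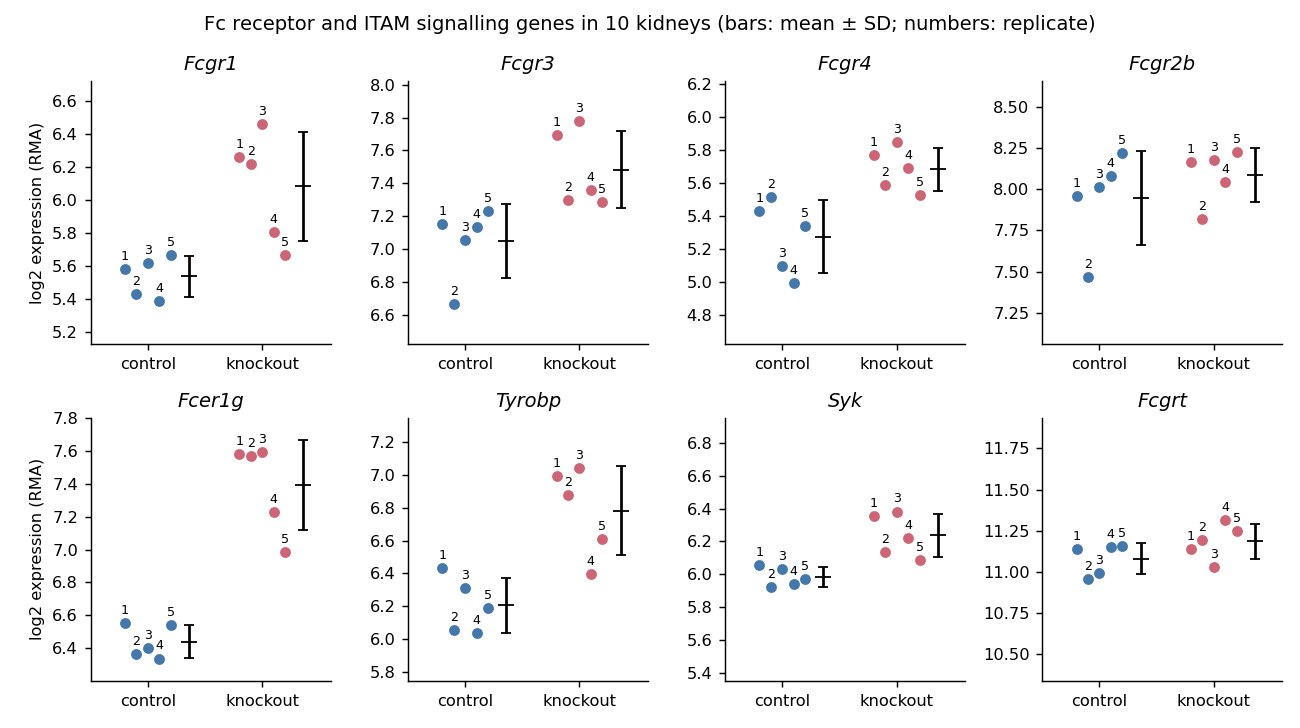
Log2 expression of the 8 genes in each of the 5 control (blue) and 5 knockout (red) kidneys, with replicate numbers beside the points and mean ± SD (n = 5) at the side; each panel spans the same log2 range. For Fcer1g the knockouts sit between 6.98 and 7.59, above all controls (6.34 to 6.56), whereas for Fcgr2b and Fcgrt the groups overlap.

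Of the adaptors, Fcer1g, the shared chain of the activating Fc receptors, differed most. Controls 1 to 5 measured 6.56, 6.37, 6.40, 6.34 and 6.54, and knockouts 1 to 5 measured 7.58, 7.57, 7.59, 7.23 and 6.98. Every knockout lay above every control, and knockouts 4 and 5 were the lowest of their group. The mean went from 6.44 ± 0.10 to 7.39 ± 0.27 (SD, n = 5 per genotype). That is 0.95 on the log2 scale (SE 0.11, limma adjusted p = 4.13e-04), or 1.93-fold (95% interval 1.64 to 2.28). It ranked 111 among the increases of all genes. Its call was kept whichever kidney was left out (adjusted p = 2.35e-05 to 0.00219).

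Tyrobp, the other adaptor, rose by less. The controls measured 6.43, 6.06, 6.31, 6.04 and 6.19, and the knockouts 6.99, 6.87, 7.04, 6.40 and 6.61. Knockout 4 lay just below control 1, so the groups overlapped at that point, and the other 4 knockouts were above all controls. The log2 difference was 0.58 (SE 0.12, adjusted p = 0.0118), or 1.49-fold (1.24 to 1.79), and the adjusted p stayed between 0.00299 and 0.0346 with any kidney left out. Within each kidney, the log2 value of Tyrobp minus that of Fcer1g was lower in all 5 knockouts than the control mean, by 0.14 to 0.60. This change of -0.38 (SD 0.12 in controls and 0.17 in knockouts) had an exact two-sided permutation p of 0.00794, the smallest that 5 against 5 allows, and an adjusted p of 0.0159 over 6 pairs of members compared in this way. The test concerns unequal change on the array and says nothing of which gene is more abundant.

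The activating receptors all rose, by similar amounts. Fcgr1, the high-affinity IgG receptor, measured 5.58, 5.43, 5.62, 5.39 and 5.67 in the controls and 6.26, 6.22, 6.46, 5.81 and 5.67 in the knockouts. Knockouts 1 to 3 stood well above the controls, while knockout 5 and control 5 were both at 5.67 and differed only beyond the second decimal. Its log2 difference was 0.55 (SE 0.13, adjusted p = 0.0245), or 1.46-fold (1.20 to 1.78). Fcgr3, a low-affinity receptor, measured 7.15, 6.67, 7.05, 7.14 and 7.23 in the controls and 7.70, 7.30, 7.78, 7.36 and 7.29 in the knockouts. Control 2 was the lowest and knockouts 1 and 3 were the highest, and the lowest knockout stood just above the highest control. Its log2 difference was 0.44 (SE 0.12, adjusted p = 0.0462), or 1.35-fold (1.13 to 1.62). Fcgr4, which binds IgG2 subclasses, measured 5.43, 5.51, 5.09, 4.99 and 5.34 in the controls and 5.77, 5.59, 5.85, 5.69 and 5.52 in the knockouts. The groups were again separated narrowly, with knockout 5 at 5.52 and control 2 at 5.51. Its log2 difference was 0.41 (SE 0.10, adjusted p = 0.0246), or 1.33-fold (1.14 to 1.54).

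These 3 calls lay close to the threshold and depended on single kidneys. The adjusted p of Fcgr1 rose to 0.0536 without control 2, 0.0577 without control 4, 0.0615 without knockout 1, 0.0662 without knockout 2 and 0.0534 without knockout 3, with differences of 0.45 to 0.65 over all kidneys left out. That of Fcgr3 passed only without control 5 or knockout 5. It was 0.0687, 0.0727, 0.0913 and 0.0661 without controls 1 to 4 and 0.104, 0.0541, 0.108 and 0.0593 without knockouts 1 to 4, and the call was also lost after quantile normalisation (0.0542) and with array weights (0.0505). That of Fcgr4 was 0.0652 without control 3 and 0.0598, 0.0669 and 0.0501 without knockouts 1, 3 and 4. The signals of Fcgr1 and Fcgr4 were dim: their control means exceeded 58.2% and 51.6% of the negative control probe sets, and such low signal leaves the size of either change imprecise. Fcgr2b, Fcgr3 and Fcgr4 are related neighbours with similar extracellular domains, and signal shared between their probes was not tested.

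The inhibitory receptor Fcgr2b did not pass. The controls measured 7.96, 7.47, 8.01, 8.08 and 8.22, and the knockouts 8.17, 7.82, 8.18, 8.04 and 8.23. The groups overlapped almost entirely, with control 2 the lowest of all kidneys. The log2 difference was 0.14 (SE 0.12, 95% interval -0.13 to 0.41, adjusted p = 0.523), and it was 0.02 without control 2 and 0.21 without control 5.

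Within the kidney, Fcgr3 rose relative to Fcgr2b by 0.29 (SD 0.09 in controls and 0.22 in knockouts), higher in 4 of 5 knockouts than the control mean (exact two-sided permutation p = 0.0317, adjusted p = 0.0476). That call was lost without control 3, 4 or 5 (adjusted p = 0.0833 each) and without knockout 1, 2 or 3 (0.0595 each). Relative to Fcgr2b, Fcgr1 changed by 0.41 (adjusted p = 0.124) and Fcgr4 by 0.27 (adjusted p = 0.254), again above the control mean in 4 of 5 knockouts. Neither passed by the exact permutation test, except that Fcgr4 passed without control 2 (0.45, adjusted p = 0.0357) and Fcgr1 without knockout 5 (0.55, adjusted p = 0.0286). In knockout 5 all 3 of these contrasts lay below the control mean, at -0.15 for Fcgr1, -0.04 for Fcgr3 and -0.03 for Fcgr4.

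Syk, the kinase that docks on phosphorylated ITAMs, rose slightly. The controls measured 6.06, 5.92, 6.03, 5.94 and 5.97, and the knockouts 6.35, 6.14, 6.38, 6.22 and 6.09. The groups were separated, with knockouts 1 and 3 the highest. The log2 difference was 0.25 (SE 0.06, adjusted p = 0.0274), or 1.19-fold (1.08 to 1.31). The adjusted p was 0.0560, 0.0619 and 0.0577 without controls 2, 4 and 5, and 0.0685, 0.0682 and 0.0518 without knockouts 1, 3 and 4. Relative to Fcer1g in the same kidney, Syk was lower by 0.70 in the knockouts, below the control mean in all 5 (exact permutation p = 0.00794, adjusted p = 0.0159).

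Fcgrt, the FcRn heavy chain, did not pass. It was bright in every kidney, at 11.14, 10.96, 10.99, 11.15 and 11.15 in the controls and 11.14, 11.20, 11.03, 11.31 and 11.25 in the knockouts. The groups overlapped, and knockouts 2, 4 and 5 stood above all controls. The log2 difference was 0.11 (SE 0.06, 95% interval -0.03 to 0.24, adjusted p = 0.321), and 0.05 after quantile normalisation. Relative to Fcer1g it changed by -0.85, below the control mean in all 5 knockouts (exact permutation p = 0.00794, adjusted p = 0.0159). Its partner B2m, also the light chain of MHC class I, rose from 11.82 ± 0.19 to 12.26 ± 0.11 (SD, n = 5 each; log2 difference 0.44, SE 0.08, adjusted p = 0.00730). The ligand gene Alb, named after its values were seen, was at 6.58 and 6.43 and did not pass (adjusted p = 0.473).

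**Figure D2:**
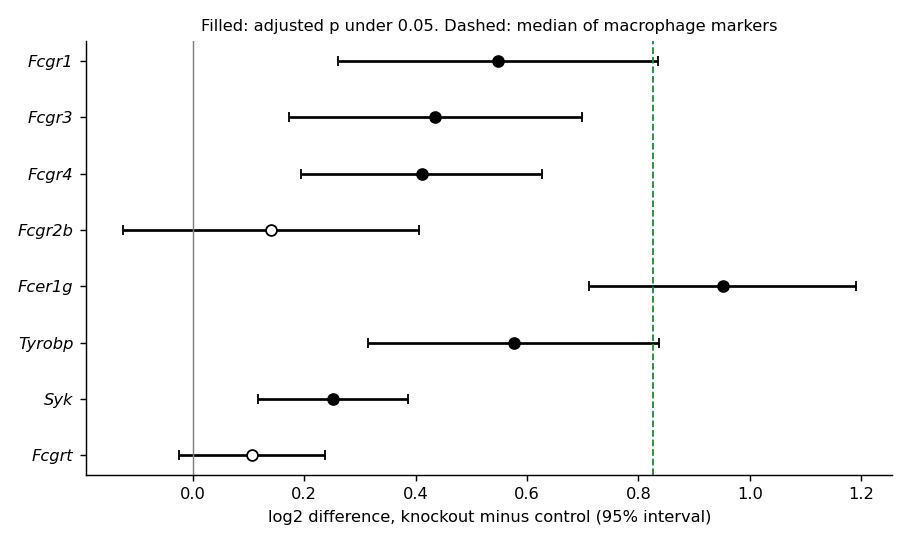
Log2 differences between knockout and control kidneys with 95% intervals (n = 5 each) for the 8 genes, filled where the adjusted p was under 0.05; the dashed line is the median over 19 macrophage and monocyte markers (0.83). Fcer1g (0.95) lies beyond that line, and the intervals of Fcgr2b and Fcgrt include 0.

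Fcgr2b, Fcgr4, Fcgr3 and Fcer1g lie in this order along 274 kb of chromosome 1 (mm10, 170960558 to 171234349, from the RefSeq annotation). Besides these 4, the table held 7 named genes of the interval, in which RefSeq lists 42 genes in all; this comparison was added after the data were seen. None of the 7 passed by limma, against 8.03% of all genes. At an unadjusted p under 0.05, 1 was higher and 2 were lower, against 6927 of all 30142 genes in either direction. Their log2 differences ranged from -0.23 for Sdhc, a subunit of respiratory complex II, to 0.20 for Pcp4l1. Tomm40l, Nr1i3 and Apoa2, the measured genes nearest to Fcer1g within the interval, differed by -0.13, 0.02 and 0.00. The interval ends with Fcer1g, so genes on its other side were not examined. Fcgr1 lies on chromosome 3 (96282909 to 96293969), Tyrobp and Fcgrt on chromosome 7 (30413782 to 30417582 and 45092993 to 45103822) and Syk on chromosome 13 (52582610 to 52648792).

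**Figure D3:**
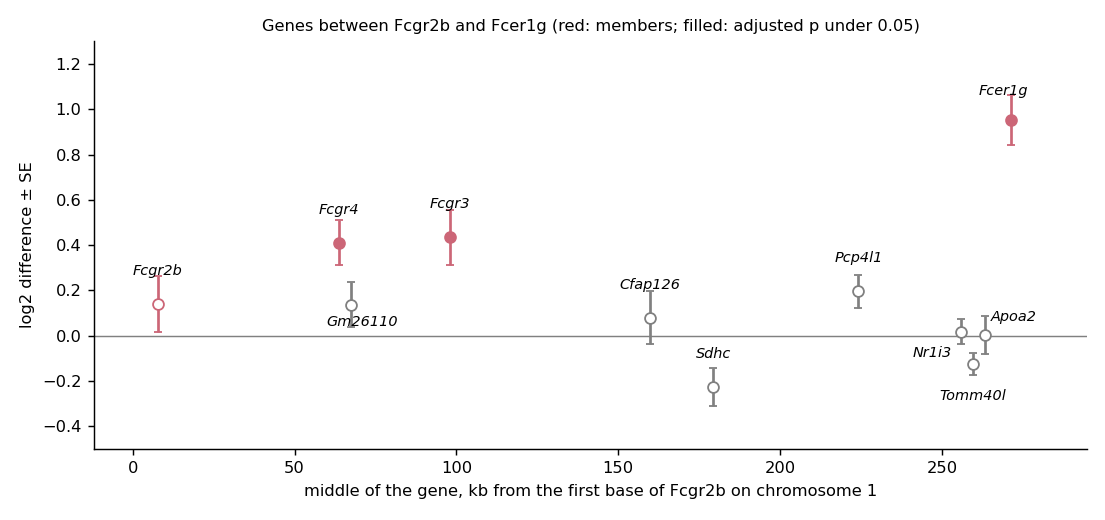
Log2 difference ± SE (n = 5 each) of the 11 named genes between Fcgr2b and Fcer1g against the distance of the middle of each gene from the first base of Fcgr2b in kb; Fc receptor and adaptor genes are red, others grey, and filled points had an adjusted p under 0.05. Fcgr4, Fcgr3 and Fcer1g are filled and lie at 0.41, 0.44 and 0.95, while the 7 other genes lie between -0.23 and 0.20.

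Macrophage markers rose along with the 6 genes that passed. Of 19 measured macrophage and monocyte markers, 17 rose and 0 fell, with a median log2 difference of 0.83, led by Lyz2 (2.38), Mpeg1 (1.47), Mrc1 (1.41) and Ctss (1.31). Averaged per kidney and set to 0 at the control mean, these markers were at -0.09 to 0.14 in the controls and 0.47 to 1.15 in the knockouts. It was 1.05, 1.02 and 1.15 in knockouts 1 to 3 and 0.67 and 0.47 in knockouts 4 and 5, and the 6 genes that passed likewise had their highest value in knockout 3. Of 5 pan-leukocyte markers 4 rose, among them Ptprc (0.82) and Cd53 (0.93). In a whole kidney, more cells of a type and more RNA per cell cannot be told apart.

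Set against the mean of the 19 macrophage markers within each kidney, Fcer1g did not differ by the exact permutation test: its change of 0.08 (SD 0.10 in controls and 0.05 in knockouts, adjusted p = 0.143 over 8 genes) was above the control mean in 5 of 5 knockouts. It passed without control 5 (0.12, adjusted p = 0.0381). The other 7 genes changed by less than the marker mean, below the control mean in all 5 knockouts. The change was -0.33 for Fcgr1, -0.46 for Fcgr4, -0.62 for Syk and -0.77 for Fcgrt (adjusted p = 0.0159 each). It was -0.30 for Tyrobp (adjusted p = 0.0317), -0.44 for Fcgr3 (0.0363) and -0.73 for Fcgr2b (0.0254). These calls for Tyrobp and Fcgr2b were lost without control 1 or 3 or knockout 2 or 3 (adjusted p = 0.0529 and 0.0508). That for Fcgr3 was lost without control 1, 3, 4 or 5 or knockout 2 or 3 (0.0544 to 0.0726). This comparison was added after the data were seen, and the part that brightness of a probe set plays in it was not tested.

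**Figure D4:**
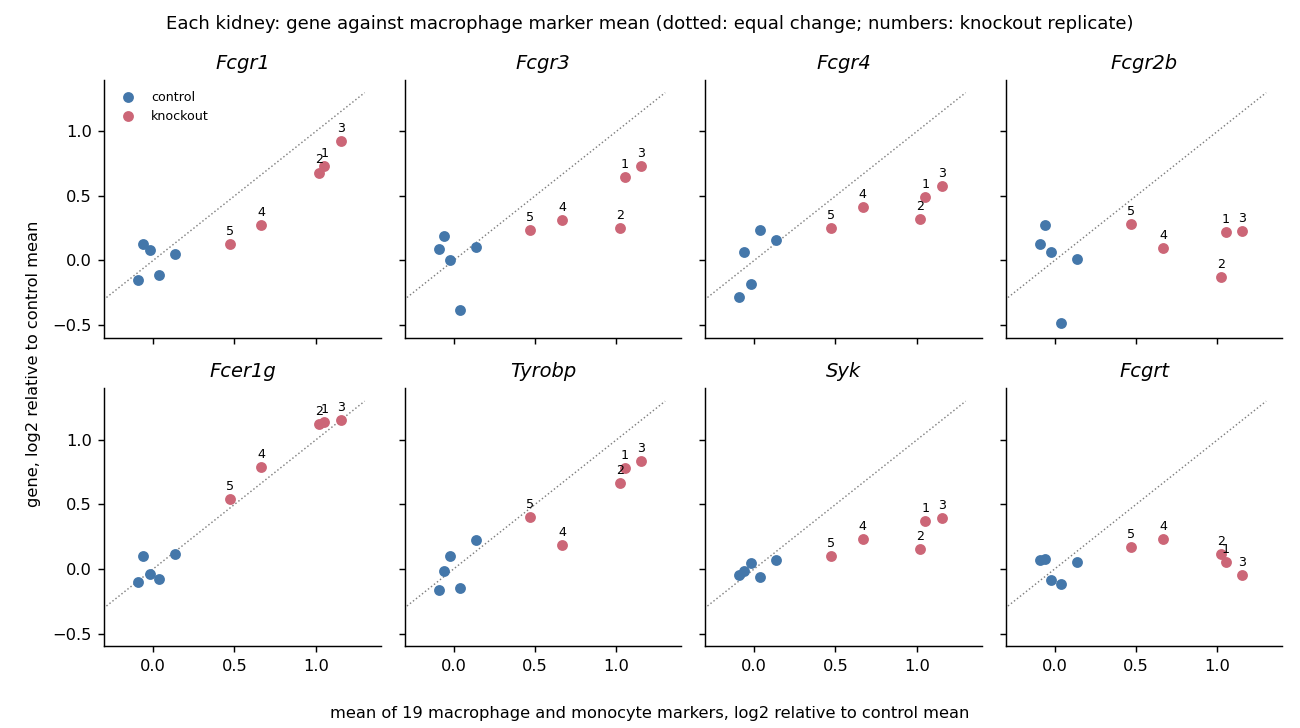
For each kidney, the log2 value of a gene (vertical) against the mean of 19 macrophage and monocyte markers (horizontal), both relative to the control mean; controls are blue, knockouts red with replicate numbers, and the dotted line marks equal change. Fcer1g follows the dotted line, with knockouts at 0.54 to 1.15, and the knockout points of the other genes lie below it.

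Markers of other cells that bear these receptors were read in the same way. The unadjusted counts below stand beside 6927 of all 30142 genes with an unadjusted limma p under 0.05, in either direction. By limma, 0 of 10 neutrophil markers passed (at an unadjusted p under 0.05, 1 was higher and 0 were lower), and the mean of the list was -0.04 to 0.07 in the knockouts against -0.07 to 0.06 in the controls. The smallest p belonged to Ly6g (0.23, adjusted p = 0.0823) and Camp (-0.10); Ly6g passed after quantile normalisation (0.26, adjusted p = 0.0458), with array weights (0.0339) and without knockout 5 (0.0255). Of 10 mast cell markers, 0 rose and Kit (-0.25) fell. At an unadjusted p under 0.05, 1 was higher, Tpsab1 (0.27, limma adjusted p = 0.164), and 1 was lower. Tpsab1 was named after its values were seen. The control means of Cpa3 and Mcpt4 exceeded only 13.7% and 24.1% of the negative control probe sets, that of Kit 94.3%. Which cells gave the signal of Kit was not tested. Of 8 NK cell markers Klrd1 rose (from 3.72 to 4.14) and 0 fell, with a list median of -0.05. But the control mean of Klrd1 exceeded only 17.7% of the negative control probe sets and that of the defining receptor Ncr1 35.6%. At an unadjusted p under 0.05, 1 was higher and 1 lower, Gzma (-0.18, limma adjusted p = 0.0794), named after its values were seen. None of 8 B cell markers passed by limma, with 0 at an unadjusted p under 0.05. Fcer2a and Ms4a1 differed by -0.07 and -0.09, but both were dim. Their control means exceeded only 39.0% and 22.8% of the negative control probe sets, and at such low signal a change could be missed. Of the 8, 3 were dimmer than the negative control median. Of 10 dendritic cell markers 2 rose, Cd209a (0.68) and Cd24a (0.47), the latter also an epithelial gene. At an unadjusted p under 0.05, 6 of these 10 were higher and 0 lower, and the median of the list was 0.22. Its mean was 0.10 to 0.37 in the knockouts against -0.05 to 0.08 in the controls, so it rose along with the activating receptors. The part of this list in their result was not tested. None of 7 platelet markers passed by limma (0 at an unadjusted p under 0.05), with Ppbp at -0.08 and Itgb3 at 0.05.

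Among cells that make Fcgrt, podocyte markers did not pass by limma (0 of 4, and 0 at an unadjusted p under 0.05), with Nphs1 at -0.10 and Synpo at 0.04. Nor did endothelial markers (0 of 6; at an unadjusted p under 0.05, 1 was lower and 0 were higher), with Kdr at -0.18 and Cdh5 at 0.18. Kdr passed after quantile normalisation (-0.20, adjusted p = 0.0378) and without knockout 2 (0.0406). Of 8 proximal tubule markers 2 fell, Slc5a2 (-0.46) and Lrp2 (-0.21); the call of Slc5a2 was lost without knockout 1 (adjusted p = 0.0511) or 2 (0.0514). Of 8 general kidney markers Aqp2 rose (0.94), and Umod (-0.45), Slc12a1 (-0.35) and Lrp2 fell.

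The receptors that signal through Tyrobp or Fcer1g mostly did not pass. Of 17 measured, 2 rose and 0 fell, with a median of 0.05: Cd300ld (from 4.84 to 5.20, 0.36) and the lectin gene Clec4n (from 4.76 to 5.07, 0.31). Both were dim, with control means above 40.8% and 39.0% of the negative control probe sets, and 13 of the 17 had control means below the median of those probe sets. Clec4n kept its call only without control 1 or knockout 5 among kidneys left out (otherwise adjusted p = 0.0526 to 0.101), and Cd300ld lost it without control 3 (0.0501), control 5 (0.0517) or knockout 2 (0.0590). Trem2, the lipid-sensing partner of Tyrobp, was named after its values were seen: it differed by 0.17 (adjusted p = 0.127). Of 11 other Fc receptors and Fc receptor-like genes, 0 passed by limma; at an unadjusted p under 0.05, 1 was lower and 0 were higher. Fcamr, the receptor for IgA and IgM, was at 7.56 and 7.17 (-0.38, SE 0.14, adjusted p = 0.108), and passed with array weights (-0.46, 0.0291) and without knockout 5 (-0.46, 0.0436).

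Downstream of the ITAM, some effectors rose. Of 33 measured Src and Syk family kinases and ITAM substrates, 8 rose and 0 fell, with a median of 0.04. Nckap1l, the haematopoietic subunit of the WAVE actin regulator, rose from 6.17 ± 0.08 to 7.04 ± 0.28 (SD, n = 5 each; log2 difference 0.87, SE 0.11, adjusted p = 7.75e-04). The adaptor Lcp2 (0.70), the GTPase Rac2 (0.53) and the phosphoinositide kinase subunit Pik3cg (0.44) followed, each with groups that did not overlap. Vav1 (0.43), Vav3 (0.28), Btk (0.26) and Gab2 (0.24), named after their values were seen, were the rest, and the control mean of Btk exceeded only 34.0% of the negative control probe sets. Fgr, a Src family kinase of myeloid cells also named afterwards, differed by 0.14 (adjusted p = 0.137).

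Genes listed as inhibitory receptors and phosphatases rose more often by count. The list also held adaptors such as Dok2, the ubiquitin ligases Cbl and Cblb and the kinase Csk. Of 31 measured, 13 rose and 1 fell, with a median of 0.15, and 4 had control means below the negative control median. Lilrb4a (0.89) and Pirb (0.56), receptors with ITIMs on myeloid cells, the myeloid receptor Cd33 (0.64) and the phosphatase Ptpn22 (0.61) led them. Cd33 rose from 6.63 ± 0.08 to 7.27 ± 0.15 (SD, n = 5 each; SE 0.07, adjusted p = 3.05e-04). Named after their values were seen, Inpp5d, the phosphatase recruited by Fcgr2b, rose by 0.52 (SE 0.11, adjusted p = 0.0157), Ptpn6 differed by 0.08 (adjusted p = 0.238) and the adaptor Dok2 was the gene of this list that fell (-0.22). Whether this list and the kinase list differ in how often their genes rose was not tested.

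Of 6 other ITAM chains, those of the T and B cell receptors, Cd3e rose (0.33, SE 0.08, adjusted p = 0.0221) and 0 fell. Its call was lost without knockout 1 (0.0503), 2 (0.0560) or 3 (0.0607). Cd79a and Cd79b, named after their values were seen, differed by -0.11 and 0.03. Of 5 measured immunoglobulin genes, 0 passed by limma; at an unadjusted p under 0.05, 1 was higher and 0 were lower. Ighm was at 6.25 ± 0.04 in the controls and 6.70 ± 0.41 in the knockouts (SD, n = 5 each; 0.45, adjusted p = 0.0958), and passed without knockout 4 (0.55, adjusted p = 0.0398). It was 0.28 without knockout 1 and 0.055 (adjusted p = 0.754) when rows with several symbols were added. Ighg2b differed by 0.24, and by 0.14 without knockout 1.

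**Figure D5:**
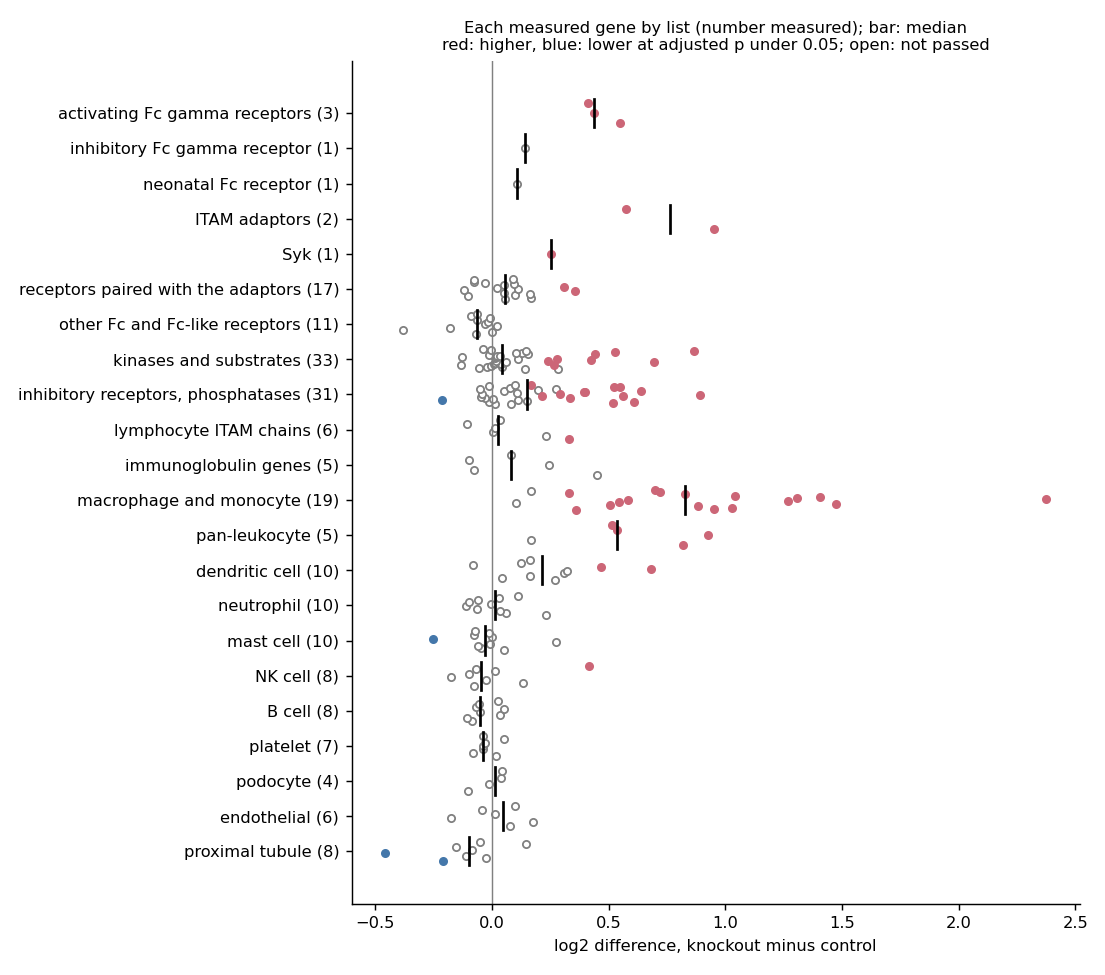
Log2 difference of each measured gene (points) by list, with the number of genes measured and a bar at the median; red points were higher and blue points lower in knockouts at an adjusted p under 0.05, and open points did not pass. The 17 of 19 macrophage and monocyte markers in red stand apart from the neutrophil, B cell and platelet markers, which are all open. Control means lay below the negative control median for 4 of 10 neutrophil, 3 of 8 B cell and 1 of 7 platelet markers. For macrophage and monocyte markers this was 1 of 19.

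The genes whose values over the 10 kidneys were nearest to those of Fcer1g, by root mean square difference of log2 values relative to the control mean, were the macrophage genes Adgre1 (0.05) and Itgam (0.08), then Ache (0.10), Casp12 (0.10) and Nckap1l (0.10). Adgre1, which encodes the F4/80 antigen, was at 6.14 ± 0.14 in the controls and 7.09 ± 0.29 in the knockouts (SD, n = 5 each). Nearest to Tyrobp were Lair1 (0.09), Apobec1 (0.09), Mgl2 (0.10), Pirb (0.10) and Bin2 (0.10). Nearest to Fcgrt were Cuta (0.02), Znrd1 (0.04), Tmem59, S100a10 and Tmem179b (0.05 each). Genes chosen for likeness to a member share its difference between genotypes by that choice.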

How the data were processed

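Whole-kidney RNA of 5 control and 5 knockout mice was measured on arrays. The authors deposited log2 values of transcript clusters, made with RMA and mm10 per the submitters' processing notes; filters are not given here. The log2 scale was taken from their range. Rows with 1 gene symbol in the platform annotation (30604 of 72688) were averaged per gene, with symbols updated by Entrez identifier for 827 rows; 2146 rows with several symbols and 39938 with none were left out. Arrays carry no read depth, and their number limits precision. Array medians were 5.35 to 5.42 and correlations between arrays 0.992 to 0.998.

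Groups were compared with limma 3.58.1 in R 4.3.3 (lmFit, eBayes with trend), two-sided, adjusted by Benjamini-Hochberg over 30142 genes at 0.05, with no dim-gene filter and no covariate. The fit was tested on simulated data. Contrasts within a kidney used exact permutation tests. Named genes were Stk11, the members, up to 4 passing genes with the largest differences per list (or the 2 with the smallest p), and the 5 genes nearest to each of Fcer1g, Tyrobp and Fcgrt. Members, lists and tests were chosen with earlier results of these data known. Nothing says more of the replicates than that they are separate mice. Alternatives were quantile normalisation, centring, a dim-gene filter, other row rules, no trend, array weights, a replicate block and leaving out each kidney. One promoter motif fixed in the design is not reported here. Plots used Python 3.11.15 and matplotlib 3.10.9.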

Additional observations from a re-analysis of the deposited data

Results flagged for a closer look

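By Dixon's test at its 95% critical value for groups of 5, 3 values among the named genes stood apart from the rest of their group, of 128 groups tested, where chance flags about 1 in 20. None belonged to the 8 genes described. Lcp2 was highest in control 1 (6.65, the others 6.34 to 6.43), and so was Pik3cg (5.70, the others 5.61 to 5.63). Nphs1 was highest in knockout 5 (7.51, the others 7.21 to 7.29).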

How the results depend on the processing

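The count of members that passed was 6, and 5 after quantile normalisation and with array weights, where Fcgr3 was lost (0.43, adjusted p = 0.0542, and 0.37, adjusted p = 0.0505). It was 6 under the other alternatives that keep all kidneys. Leaving out each kidney gave 2 to 6 members: 2 without knockout 1 or 3, and 3 without control 2, control 4 or knockout 4. Differences then ranged from 0.45 to 0.65 for Fcgr1, 0.34 to 0.48 for Fcgr3, 0.34 to 0.47 for Fcgr4 and 0.22 to 0.29 for Syk. Without knockouts 4 and 5 together, chosen after the data were seen, 6 members passed, with Fcgr1 at 0.78 and Fcgr3 at 0.54. The contrasts with Fcgr2b ranged from 0.31 to 0.55 for Fcgr1, 0.24 to 0.38 for Fcgr3 and 0.17 to 0.45 for Fcgr4. Genes past the threshold numbered 2420 (1614 higher, 806 lower) and 1526 to 3412 with a kidney left out (1089 to 1942 higher, 437 to 1470 lower), the most without knockout 5; without knockouts 4 and 5 there were 1347 lower. Over the named genes, no direction reversed. Replicate numbers were shared by the groups, and no label says whether they mark pairs, so the main tests did not pair them. Deviations of same-numbered kidneys correlated at -0.08 to 0.31 (over 0.1 in 4 of 5 pairs), and 3 of 5 controls matched their own number best. These values do not settle whether same-numbered kidneys belong together, and the unpaired tests take them as independent. With the replicate block 6 members and 2781 genes passed, and of the named genes Clec4n lost its call (adjusted p = 0.0573). Exact paired permutation tests of the contrasts cannot go below p = 0.0625; their changes were 0.29 (Fcgr3 minus Fcgr2b), -0.38 (Tyrobp minus Fcer1g), -0.70 (Syk minus Fcer1g) and -0.85 (Fcgrt minus Fcer1g), adjusted p = 0.0938 each, and 0.0714 for each of the 7 macrophage marker contrasts that had passed. The cause of these shifts was not tested. Dim signals limit the sizes for Fcgr1 and Fcgr4.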
